A study of Mus musculus with 64 samples.

Results

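The mouse mitochondrial genome is a small circle of DNA, and its genes appear in the count table as 37 of 45708 gene symbols, those that begin with mt-. They are 13 mRNAs, 2 ribosomal RNAs and 22 transfer RNAs, and each class is described on its own. In this series they were counted in RNA of microglia, which are macrophages that live in the brain, in mice that carry or lack RISP. RISP is the Rieske iron-sulfur protein of respiratory complex III, and its gene Uqcrfs1 lies in the nucleus. The study asked what microglia do without mitochondrial respiration, at rest, after demyelination and when they renew themselves.

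Mitochondrial DNA is transcribed from both strands into long RNAs, and tRNAs that lie between most of the other genes mark where these are cut into single transcripts. The mRNAs encode core subunits of complex I (the mt-Nd genes), complex III (mt-Cytb), complex IV (the mt-Co genes) and ATP synthase (the mt-Atp genes), and the rRNAs build the mitochondrial ribosome that translates them. Every other subunit of these complexes, RISP included, is encoded in the nucleus and imported.

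Libraries came from CD11b and CD45.2 stained microglia sorted from whole brain, labelled RISP KO, Het or WT. Comparisons were made inside 5 sets of libraries. Naive adult libraries numbered 1 to 5 comprised 5 KO, 4 Het and 5 WT, and those numbered 5 to 11 comprised 6 KO (replicates 6 to 11) and 7 Het (replicates 5 to 11). The cuprizone set held 6 KO and 4 Het adult libraries; cuprizone is a copper-binding toxin fed to mice to cause loss of oligodendrocytes and demyelination. Adults given PLX3397, an inhibitor of the receptor CSF1R on which microglia depend, formed the depletion set (2 KO, 2 Het and 4 WT) and the repopulation set (4 of each genotype). Naive adult libraries 12 and 13 (2 KO and 2 Het) and 3 old Het libraries entered no comparison. The labels name neither the driver of the deletion nor a dose, day or sex, and Het is the control without a matched WT in the naive 5 to 11 and cuprizone sets. Nothing in them states that replicates came from different animals, so p-values measure the spread between these samples, which may be technical.

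The sets fell into 2 kinds of library. In the naive 1 to 5, depletion and repopulation sets (34 libraries) the nuclear transcripts Gm26917 and Yam1 took 0.0688 to 0.276% of counts, and in the other 30 libraries they took 2.22 to 13.6%. The labels assign a NextSeq 500 to untreated KO and WT animals and a NextSeq2000 to the rest, but not library by library. Read literally, this puts untreated Het and treated animals on another sequencer than untreated KO and WT. In naive KO against Het a difference of sequencer therefore cannot be told apart from genotype. In treated against naive WT it cannot be told apart from treatment. Levels were not compared across the 2 kinds, because kind of library and set cannot be told apart. Only the KO-Het difference was compared across them, between the 2 naive sets, and the same limit holds there. Total counts ran from 9323294 to 16273039 in the first kind, from 6379348 to 11694165 in the naive 5 to 11 set and from 2695432 to 5100363 in the cuprizone set. Uqcrfs1 was lower in every KO library than in every control library of its set, for example 1.17 to 3.26 CPM (counts scaled to a library total of 1000000) in KO against 9.34 to 17.7 in Het of the naive 5 to 11 set. All 8 microglia markers were detected in every library compared. Because the RNA is bulk, fewer cells that hold a transcript and less of it per cell cannot be told apart.

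The sequences matter here because part of the mitochondrial genome has a second copy on chromosome 1 (GRCm38 chr1:24611535-24616197, minus strand), annotated as a row of unprocessed pseudogenes. Gm28661 shares all 681 of its bases with mt-Co2, Gm10925 all 678 with mt-Atp6, Gm28437 all 783 with mt-Co3, Gm10222 all 294 with mt-Nd4l and Gm28439 all 876 with mt-Nd4. Gm28438 differs from mt-Nd3 by 1 base over 345, and Gm29216 from mt-Co1 by 6 over 492. Reads that lie wholly in identical stretches fit both places equally, so how they are divided is a matter of read assignment. The following stretches, 5′ to 3′ on the strand of the gene, show an identical pair, a pair that differs by T3C, and the most divergent stretch of the mt-Co1 pair. Capitals mark bases that differ within a pair, and positions count from 1 at the first base of the mitochondrial gene. They are GENCODE M21 transcript sequences on GRCm38.
mt-Co2 (chrM:7013-7696, plus strand) positions 311 to 370: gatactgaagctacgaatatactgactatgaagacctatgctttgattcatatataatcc
Gm28661 (chr1:24614885-24615565), the same stretch: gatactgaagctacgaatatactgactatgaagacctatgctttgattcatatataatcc
mt-Nd3 (chrM:9459-9806, plus strand) positions 1 to 60: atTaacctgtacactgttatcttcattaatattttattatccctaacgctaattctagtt
Gm28438 (chr1:24612775-24613119), the same stretch: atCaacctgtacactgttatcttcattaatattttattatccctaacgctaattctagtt
mt-Co1 (chrM:5328-6872, plus strand) positions 1054 to 1113: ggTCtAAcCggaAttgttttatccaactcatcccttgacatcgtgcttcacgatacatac
Gm29216 (chr1:24615706-24616197), the same stretch: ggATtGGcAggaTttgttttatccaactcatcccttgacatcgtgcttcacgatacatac

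The 2 kinds of library divided these counts in different ways. Of the counts on mt-Co2 and its copy together, the copy held 0% at the median and 0.996% at most in the first kind, but 66.9 to 100% with a median of 84.8% in the second. The medians were 0 and 78.7% for mt-Atp6, 1.20 and 60.6% for mt-Co3, 0 and 59.0% for mt-Nd3, and 0 and 91.2% for mt-Nd4l. The copies of mt-Co1 and mt-Nd4, which align to 31.3 and 63.6% of their gene, held at most 6.44 and 0.291% in any library of the second kind. As deposited, mt-Co2 was listed at 0 in Het naive 5, Het naive 12 and Het cuprizone 1, mt-Co3 in Het naive 8 and mt-Nd3 in KO naive 7, although their copies held counts in those libraries. For these 5 genes sums of both loci are therefore also given.

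**Figure D1:**
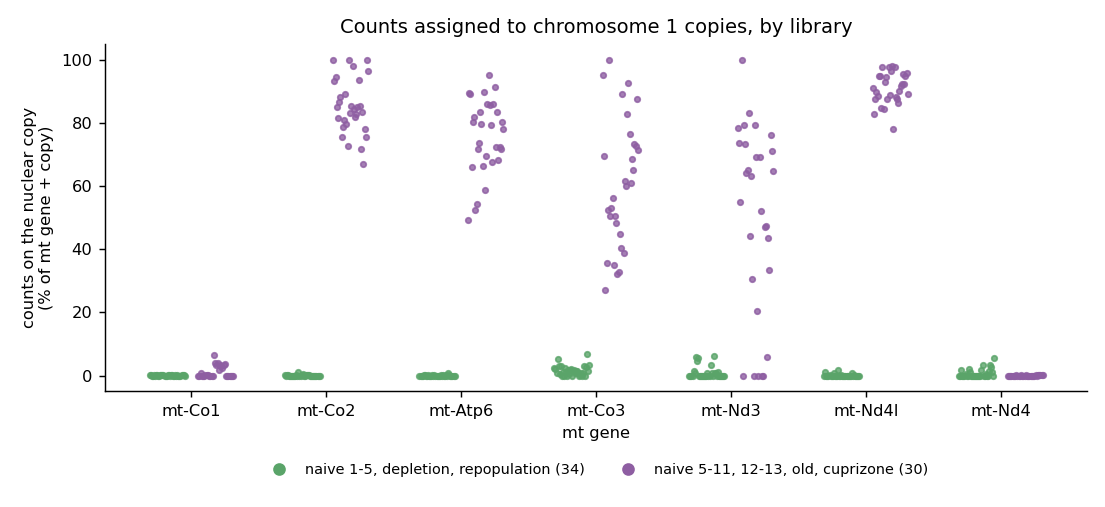
Share of the summed counts of each mitochondrial gene and its chromosome 1 copy that fell on the copy, in percent (vertical axis), 1 point per library, for the libraries of the first kind (naive 1 to 5, depletion, repopulation; 34 libraries) and of the second (30 libraries). The copy of mt-Co2 held at most 0.996% in the first kind and at least 66.9% in the second, while the copies of mt-Co1 and mt-Nd4 held at most 6.44 and 5.40% in any library.

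Levels of different genes can be compared only per length. In the 5 WT naive libraries mt-Co1, the catalytic core of complex IV, was highest at 2995 ± 505 CPM per kilobase (SD, n = 5), followed by mt-Co2 at 2191 ± 356, mt-Atp6 at 1840 ± 192 and mt-Co3 at 1689 ± 176. Cytochrome b of complex III, encoded by mt-Cytb, stood at 1450 ± 231 and mt-Nd1 at 1294 ± 134. The lowest levels were those of further complex I subunits, mt-Nd5 at 526 ± 71.0, mt-Nd6 at 500 ± 61.3, mt-Nd4l at 464 ± 83.1 and mt-Nd3 at 356 ± 30.5. Several neighbors in this order, such as mt-Atp6 and mt-Co3 or mt-Nd5 and mt-Nd6, lay within 1 SD of each other. mt-Nd6 is the single mRNA encoded on the other strand, and its last bases overlap mt-Nd5 by 14, so without knowing whether strand was used in counting, the division of that overlap is uncertain. mt-Atp8 and mt-Atp6, which are read from 1 joint transcript, share 43 bases.
mt-Atp8 (chrM:7910-7969, plus strand), its end, with the bases shared with mt-Atp6 in capitals: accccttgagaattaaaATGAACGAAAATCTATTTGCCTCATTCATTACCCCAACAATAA

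In the naive 5 to 11 set, the comparison of KO and Het with the most libraries, mitochondrial mRNAs were higher in KO across all 4 complexes. Of 13 mRNAs tested, 12 rose and none fell, against 13.7% of all 18413 genes called in either direction 7.68% called higher and 6.07% called lower. The median log2 fold change of the 13 was 1.03, and that of all genes tested 0. mt-Nd3 was the exception at 0.32 ± 0.40 (SE, adjusted p = 0.669), and its counts were divided with a copy.

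mt-Co1 showed the smallest p of the mRNAs. Its level in the 7 Het libraries ran from 2569 through a median of 3006 to 4128 CPM, and in the 6 KO libraries from 5272 through 8451 to 8736. Every KO library lay above every Het library, and KO 6 was the lowest of its group. The difference was 1.52 ± 0.20 (adjusted p = 2.16e-07). The other complex IV genes, with both loci summed, did not overlap either. mt-Co2 ran from 728 through 984 to 1494.6 CPM in Het and from 1752 through 2755 to 2909 in KO, and mt-Co3 from 614 through 767 to 1117 and from 1344 through 1909 to 2264. Their summed differences were 1.54 ± 0.21 (adjusted p = 6.579e-07) and 1.38 ± 0.19 (adjusted p = 4.551e-07). As deposited, without the copies, they were 2.05 ± 0.61 (adjusted p = 0.0174) and 1.66 ± 0.51 (adjusted p = 0.0204), with groups that overlapped.

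Among complex I genes, mt-Nd1, a membrane subunit near the quinone site, ran from 928 through 1132 to 1657 CPM in Het and from 1890 through 2029 to 2466 in KO. The groups did not overlap, and the difference was 1.03 ± 0.18 (adjusted p = 6.94e-05). mt-Nd6 ran from 67.1 through 100.4 to 122 CPM in Het and from 123 through 209.951 to 226 in KO, again without overlap, and differed by 1.18 ± 0.20 (adjusted p = 3.61e-05). The estimates for the proton-pumping subunits were smaller. mt-Nd4 differed by 0.82 ± 0.18 (adjusted p = 0.00132), mt-Nd5 by 0.73 ± 0.19 (adjusted p = 0.0046) and mt-Nd2 by 0.56 ± 0.19 (adjusted p = 0.044), and Het and KO libraries overlapped for all of them. The call on mt-Nd2 was lost without any 1 of 11 libraries, all but Het 10 and Het 11. For mt-Nd4l, summed with its copy, Het ran from 159 through 202 to 260 CPM and KO from 236 through 348 to 425, a difference of 0.92 ± 0.19 (adjusted p = 0.0005568). As deposited it differed by 1.07 ± 0.37 (adjusted p = 0.0403), a call lost without any 1 of 9 libraries, all but Het 6, Het 10, KO 8 and KO 10. mt-Nd3, which as deposited did not pass the test, differed by 0.59 ± 0.17 (adjusted p = 0.01506) once both loci were summed, from 51.6 through 80.1 to 132 CPM in Het and from 95.6 through 114 to 145 in KO.

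mt-Cytb, whose protein sits beside RISP in complex III, ran from 1595 through 1740 to 2728 CPM in Het and from 1826 through 3425 to 3776 in KO. The lowest KO library, KO 6, lay inside the Het range, and the difference was 0.91 ± 0.18 (adjusted p = 0.000342). The ATP synthase genes rose as well. mt-Atp8 ran from 199 through 261 to 404 CPM in Het and from 343 through 419 to 485 in KO, a difference of 0.80 ± 0.17 (adjusted p = 0.000974). mt-Atp6 summed with its copy ran from 988 through 1281 to 1666 and from 1599 through 2329 to 2503, a difference of 1.01 ± 0.18 (adjusted p = 6.24e-05), against 1.47 ± 0.34 (adjusted p = 0.00197) as deposited. The 3 mRNAs whose KO libraries all lay above all Het libraries as deposited were mt-Nd1, mt-Co1 and mt-Nd6, where 0.429% of all genes did so. With the copies added there were 5, and all 13 mRNAs were called higher, against 13.8% of genes called in that fit.

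**Figure D2:**
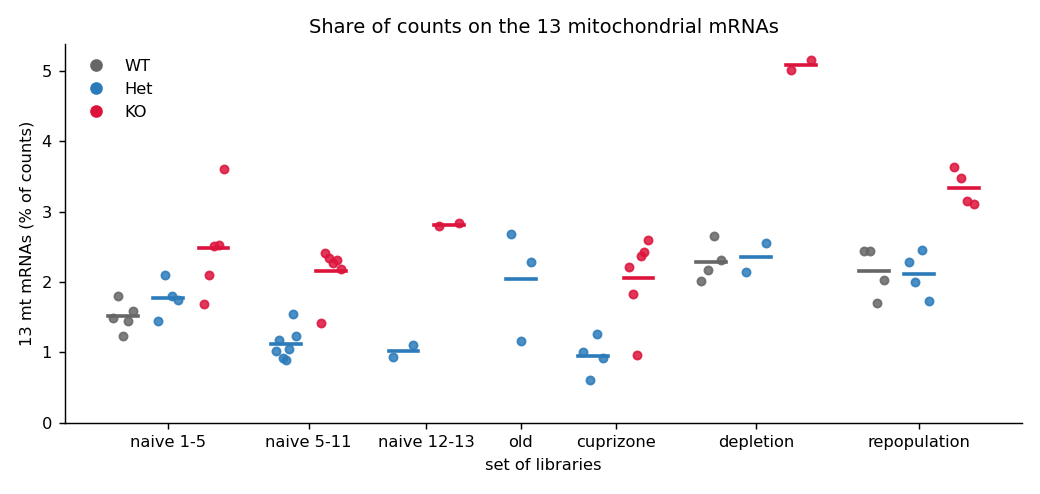
Share of all counts that fell on the 13 mitochondrial mRNAs, in percent (vertical axis), 1 point per library, by set and genotype, with the mean of each group as a line. In the naive 5 to 11 set 5 of 6 KO libraries lay between 2.19 and 2.42% and KO 6 at 1.42%, against 0.886 to 1.55% in Het.

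Cuprizone gave the same direction in another 10 libraries that share no sample with the naive sets. Of 13 mRNAs, 11 rose in KO and none fell, against 14% of all genes called, 8.16% higher and 5.83% lower. The median log2 fold change was 1.16 for the mRNAs and 0.02 for all genes. The Het libraries 1 to 4 held 2741, 1769, 3803 and 2714 CPM of mt-Co1, and the 6 KO libraries ran from 3458 through a median of 7973 to 9100. Only KO 3 fell inside the Het range. The difference was 1.53 ± 0.24 (adjusted p = 4.98e-06).

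KO 3 was the lowest KO library for most mRNAs, with 0.958% of its counts on them against 0.614 to 1.26% in Het and a KO median of 2.29%. No mRNA separated the groups completely as deposited, where 2.41% of all genes had every KO library above every Het library. mt-Nd1, at 1077, 707, 1392 and 1053 CPM in Het and 1067 through 2323 to 3124 in KO, differed by 1.22 ± 0.22 (adjusted p = 6.15e-05). mt-Cytb, at 1955, 1114, 2345 and 1696 CPM in Het and 1614 through 3608 to 3881 in KO, differed by 1.01 ± 0.22 (adjusted p = 0.000748). mt-Atp8 differed by 1.20 ± 0.21 (adjusted p = 4.21e-05), mt-Nd6 by 1.16 ± 0.25 (adjusted p = 0.000564), mt-Nd2 by 1.05 ± 0.23 (adjusted p = 0.0011), mt-Nd4 by 0.98 ± 0.22 (adjusted p = 0.00112) and mt-Nd5 by 0.95 ± 0.22 (adjusted p = 0.0019).

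For the genes whose counts were divided with a copy, the summed counts gave smaller errors. The differences became smaller for mt-Co2, mt-Atp6 and mt-Co3 and larger for mt-Nd3 and mt-Nd4l. mt-Co2 moved from 2.56 ± 0.78 to 1.68 ± 0.26 (adjusted p = 3.349e-06), mt-Atp6 from 2.57 ± 0.44 to 1.19 ± 0.22 (adjusted p = 5.638e-05) and mt-Co3 from 1.77 ± 0.62 to 1.56 ± 0.23 (adjusted p = 1.257e-06). mt-Nd3 and mt-Nd4l, not called as deposited (0.45 ± 0.48 and 0.56 ± 0.47), differed by 1.09 ± 0.21 (adjusted p = 0.000185) and 1.03 ± 0.23 (adjusted p = 0.001183). Summed mt-Nd3 ran from 46.4 through 68.5 to 76.8 CPM in Het and from 95.001 through 128 to 149 in KO, so the groups no longer overlapped. As deposited, the call on mt-Co2 was lost without Het 1 or Het 2, and that on mt-Co3 without any 1 of 7 libraries, all but Het 1, KO 3 and KO 6. A fit of only these 10 libraries called 4 of the 13 mRNAs as deposited, against 9.68% of all genes, and 7 with the copies added, against 9.75%. The fit of all libraries with copies added called all 13, against 14%. The KO-Het difference itself was not shown to differ between cuprizone and the naive 5 to 11 set for any mRNA, with 0 called by edgeR and by DESeq2, 1 at an unadjusted p under 0.05 and 0.179% of all genes called by edgeR.

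**Figure D3:**
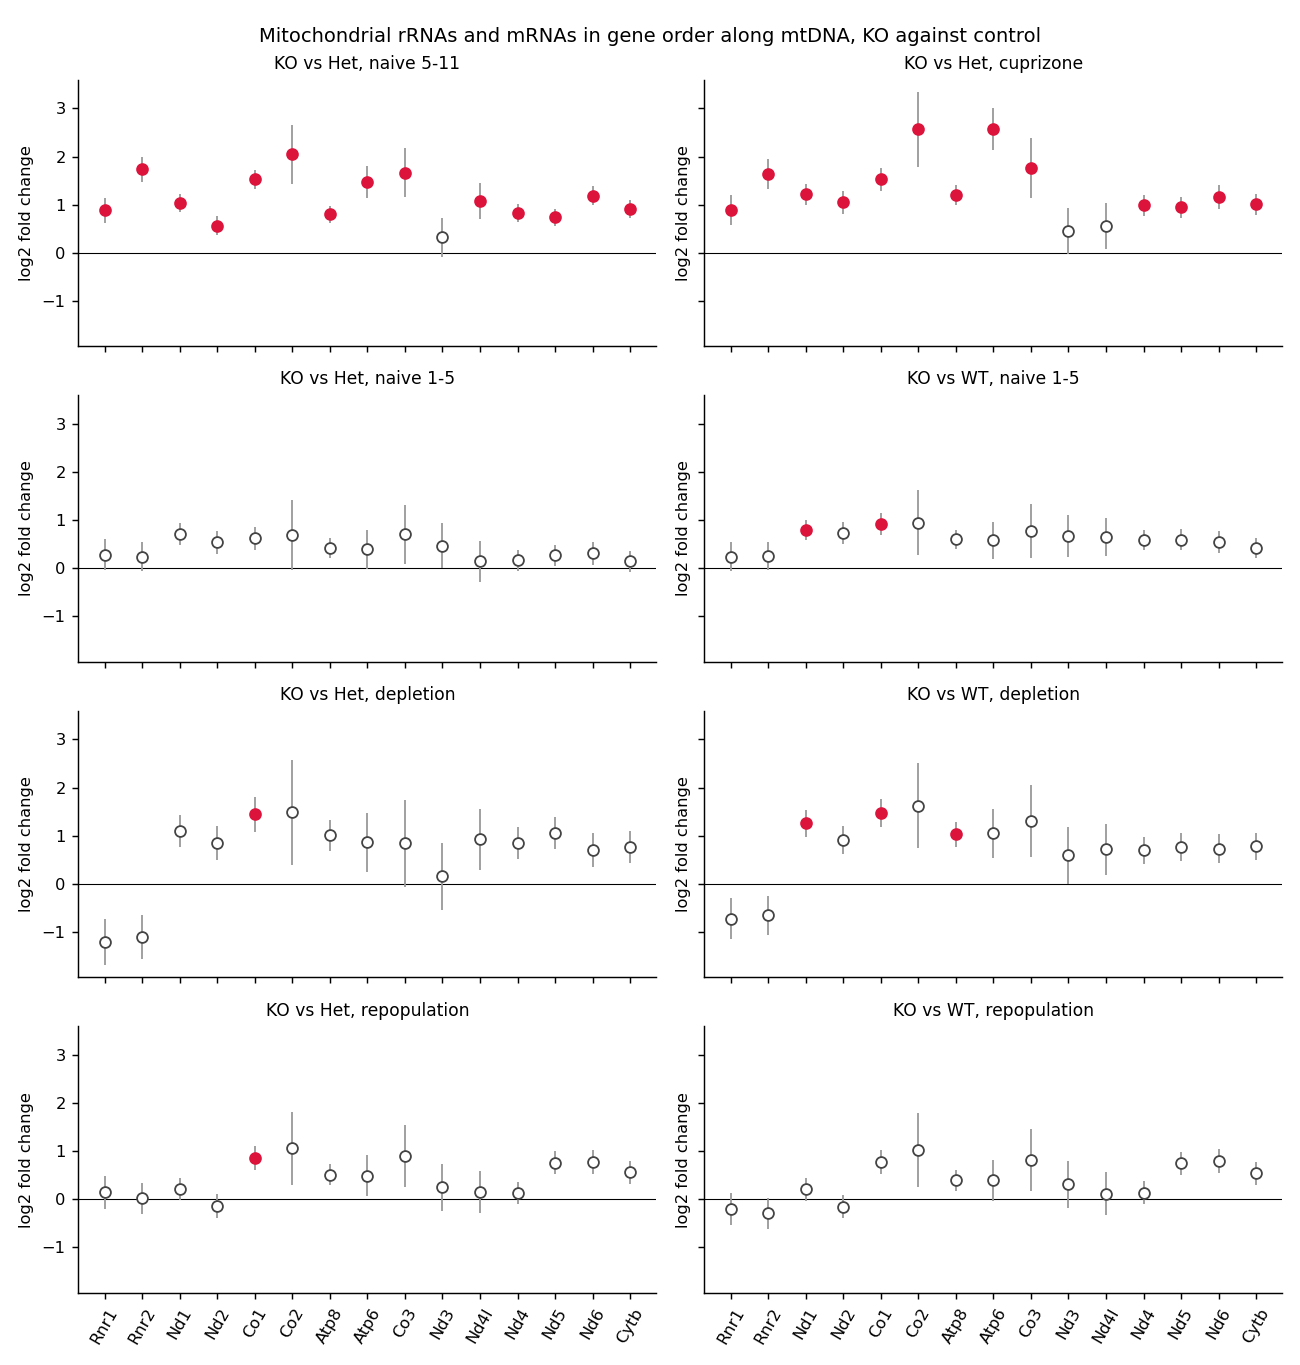
Log2 fold change of each mitochondrial mRNA and rRNA, KO over Het or WT, in each set (vertical axis; bars are 1 standard error from edgeR, filled points passed the test, open points did not), as deposited, in the order of the genes along the genome. The 13 mRNAs lie above 0 in every panel but for mt-Nd2 at repopulation (-0.15), while the rRNAs are higher in KO in the naive 5 to 11 and cuprizone sets and below 0 at depletion.

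The naive 1 to 5 set gave smaller differences. Against WT, 2 of 13 mRNAs rose in KO and none fell, where 1.93% of all genes were called, 1.15% higher and 0.787% lower. The median was 0.65 for the mRNAs and 0.00 for all genes. KO libraries 1 to 5 held 5214, 6961, 8683, 8988 and 12647 CPM of mt-Co1, and WT libraries 1 to 5 held 4411, 5682, 3591, 4428 and 5025. KO 5 was highest, and KO 1 lay inside the WT range. The difference was 0.92 ± 0.22 (adjusted p = 0.0151). mt-Nd1 stood at 1385, 1642, 1852, 2105 and 3409 CPM in KO and at 1258, 1437, 1087, 1212 and 1197 in WT, with KO 1 again below the highest WT library. It differed by 0.79 ± 0.21 (adjusted p = 0.0285).

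These 2 calls depended on single libraries. Without KO 5, mt-Nd1 differed by 0.52 (adjusted p = 0.3166) and mt-Co1 by 0.71 (adjusted p = 0.1306), and neither passed without KO 4 or without WT 3. The call on mt-Nd1 was also lost without WT 1, WT 4 or WT 5, and 4 mRNAs were called without KO 1. Every KO library lay above every WT library for mt-Co3 and mt-Nd3, 2 of 13 against 1.61% of all genes. mt-Co3 held 1659, 1801, 2491, 2492 and 2605 CPM in KO and 1364, 1530, 1158, 1310 and 1260 in WT. mt-Nd3 held 155, 159, 192, 215 and 239 CPM in KO and 134, 136, 115, 113 and 122 in WT. Neither was called as deposited, with mt-Co3 at 0.77 ± 0.57 (adjusted p = 0.683541) and mt-Nd3 at 0.67 ± 0.44 (adjusted p = 0.629659). The standard errors come from 1 spread over all 64 libraries, those with divided counts included. With copies added, mt-Co3 differed by 0.79 ± 0.21 (adjusted p = 0.03087) and mt-Co2 by 0.95 (adjusted p = 0.01893), for 4 called in all against 1.96% of genes.

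Against Het in the same set, which shares the KO libraries, no mRNA was called by edgeR, against 2.73% of all genes. At an unadjusted p under 0.05 there were 3, and DESeq2 called 1. The median was 0.42 against 0.03 for all genes. The 4 Het libraries held 4484, 6524, 5819 and 5487 CPM of mt-Co1, which overlapped the KO libraries, and the difference was 0.63 ± 0.24 (adjusted p = 0.179). mt-Nd1, at 1136, 1519, 1250 and 1238 CPM in Het, came closest to the threshold at 0.71 ± 0.22 (adjusted p = 0.0738). mt-Cytb differed by 0.14 ± 0.22 (adjusted p = 0.864341). In the order of the samples KO 1 to 4 and WT 1 to 4 stood together. KO 5, the KO library highest in mt-Co1, stood with WT 5 and the 4 Het libraries. The labels do not name this order a batch. In KO against Het it largely coincides with genotype, and only KO 5 stands on the Het side. The KO-Het difference was not shown to differ between the 2 naive sets for any mRNA: 0 were called by edgeR or DESeq2, 5 had an unadjusted p under 0.05, and 0.543% of all genes were called by edgeR. For mt-Co1 the KO-Het difference was 0.90 ± 0.31 larger in the naive 5 to 11 set (adjusted p = 0.18). The 2 naive sets are of different kinds of library, which cannot be told apart from set in this comparison.

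At depletion the 2 KO libraries held more mitochondrial mRNA than any control library of the set, 5.01 and 5.16% of counts, against 2.14 and 2.56% in Het and 2.01 to 2.66% in WT. mt-Co1 stood at 18614 and 18605 CPM in KO, at 6337 and 7560 in Het and at 6060, 6655, 8217 and 7062 in WT. Both KO libraries lay above every control library, and Het and WT overlapped. The difference was 1.44 ± 0.36 against Het (adjusted p = 0.043) and 1.47 ± 0.29 against WT (adjusted p = 0.00208). mt-Co2 stood at 6443 and 6769 CPM in KO, 2171 and 2618 in Het and 2024, 1993, 2589 and 2309 in WT, with the copy at no more than 20.1 CPM in any of these libraries. Its groups did not overlap.

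Against Het only mt-Co1 was called, 1 of 13 against 0.511% of all genes called and 0.217% called higher, and against WT 3 were called, mt-Co1, mt-Nd1 and mt-Atp8, against 1.61% called and 1.09% called higher. The medians were 0.86 and 0.90, with 0.00 for all genes in both. mt-Nd1 stood at 3633 and 3628 CPM in KO and at 1389, 1444, 1865 and 1634 in WT, a difference of 1.26 ± 0.27 (adjusted p = 0.00514). mt-Atp8 stood at 659.7 and 702 CPM in KO and at 288, 324, 407 and 368 in WT, a difference of 1.03 ± 0.26 (adjusted p = 0.0219). All KO libraries lay above all WT libraries for 13 of 13 mRNAs, against 10.1% of all genes, and above all Het libraries for 12, against 18.6%. The exception was mt-Nd3, at 290.3 and 310.2 CPM in KO and 179 and 371 in Het.

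Depletion had the fewest libraries. The call of mt-Co1 against Het was lost without any single library of the 4, at adjusted p values from 0.1958 to 0.3056. Against WT, no mRNA was called without KO 1 and 1 without KO 2, and the call of mt-Atp8 was also lost without WT 1 or WT 2. In the other direction, a fit of only the 6 KO and WT libraries called 12 of 13, against 2.46% of all genes, with mt-Co1 at 1.43 ± 0.11 (adjusted p = 0.001815), mt-Co2 at 1.59 ± 0.11 (adjusted p = 0.001647) and mt-Cytb at 0.74 ± 0.11 (adjusted p = 0.02033). The same kind of edgeR fit against Het called 0 of 13, with 12 at an unadjusted p under 0.05, and 0 of all genes, and DESeq2 on all libraries called 2 of 13. With copies added, 6 were called against WT in the fit of all libraries, where 1.62% of all genes were called.

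**Figure D4:**
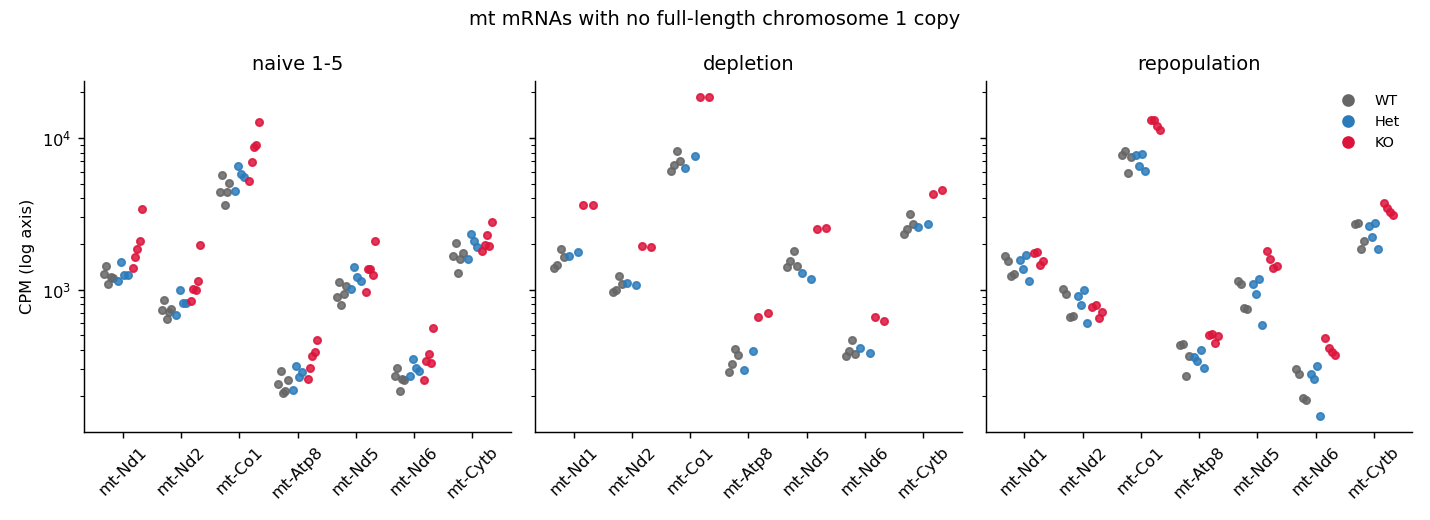
Level in CPM (vertical axis, log scale) of 7 mRNAs without a full-length copy on chromosome 1, 1 point per library, in the naive 1 to 5, depletion and repopulation sets, colored by genotype. The KO libraries at depletion stand at 18614 and 18605 CPM of mt-Co1, above every Het and WT library of that set.

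At repopulation some of the genes separated the genotypes and others did not. mt-Co1 stood at 13138, 13181, 11954 and 11217 CPM in KO, 7691, 6546, 7812 and 6032 in Het and 7676, 8140, 5910 and 7433 in WT. All KO libraries were above all controls, and the difference was 0.85 ± 0.25 against Het (adjusted p = 0.0337) and 0.77 ± 0.25 against WT (adjusted p = 0.0617). mt-Co2 stood at 4997, 4693, 4322 and 4035 CPM in KO, 2347, 2130, 2579 and 1806 in Het and 2461, 2540, 1800 and 2119 in WT. mt-Co3 stood at 4198, 3827, 3606 and 3765 CPM in KO, 2153, 1988, 2420 and 1888 in Het and 2590, 2418, 1713 and 2074 in WT. These also separated. Against Het as deposited, mt-Co2 differed by 1.06 ± 0.76 (adjusted p = 0.536) and mt-Co3 by 0.90 ± 0.64 (adjusted p = 0.529), neither called. With copies added mt-Co2 differed by 1.06 (adjusted p = 0.009711) and mt-Co3 by 0.90 (adjusted p = 0.0144), where that fit called 3 mRNAs and 4.63% of all genes. In these KO and Het libraries the copies held at most 0.399% of the summed mt-Co2 counts and 2.01% of those of mt-Co3. The spread is shared with libraries of the second kind.

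Complex I genes did not move as one. mt-Nd2 stood at 762, 788, 654 and 713 CPM in KO, 913, 796, 999 and 606 in Het and 1010, 928, 662 and 671 in WT, with overlapping groups and differences of -0.15 ± 0.25 against either control (adjusted p = 0.857 against Het and 0.854 against WT). mt-Nd1 stood at 1752, 1773, 1458 and 1545 CPM in KO and 1565, 1367, 1688 and 1131 in Het, also with overlap, at 0.22 ± 0.23 (adjusted p = 0.715302). mt-Nd5 stood at 1808, 1583, 1395 and 1426 CPM in KO, 1081, 934, 1177 and 586 in Het and 1135, 1096, 753 and 747 in WT, without overlap. Its difference of 0.76 ± 0.24 against Het missed the threshold (adjusted p = 0.0509), as did that against WT (0.75, adjusted p = 0.0523). mt-Nd6 behaved alike, at 476, 411, 389.9 and 371 CPM in KO against 276, 259, 312 and 148 in Het, with 0.77 ± 0.25 (adjusted p = 0.0684). mt-Cytb, at 3726, 3466, 3228 and 3097 CPM in KO and 2617, 2214, 2743 and 1844 in Het, differed by 0.56 ± 0.23 (adjusted p = 0.183884). Differences between genes were not tested.

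In all, 8 of 13 mRNAs had every KO library above every Het library, against 7.91% of all genes, and 8 had every KO library above every WT library, against 8.49%. They were mt-Co1, mt-Co2, mt-Co3, mt-Atp8, mt-Atp6, mt-Nd5, mt-Nd6 and mt-Cytb in both comparisons, which share the KO libraries. The fit of all libraries called 1 of 13 against Het, mt-Co1, where 4.62% of all genes were called and 2.15% called higher. Against WT edgeR called 0, where 4.78% of all genes were called, with 4 at an unadjusted p under 0.05 and 3 called by DESeq2. The medians were 0.51 and 0.39, with 0.00 for all genes. The call of mt-Co1 was lost without any of 7 of the 8 libraries compared, all but KO 4, at adjusted p values from 0.05942 to 0.1011. A fit of only the libraries compared called 8 against Het, where 14.7% of all genes were called, and 6 against WT, where 13.5% were. In it mt-Co1 differed by 0.82 ± 0.08 (adjusted p = 0.0002936) and 0.74 ± 0.10 (adjusted p = 0.001523), and mt-Nd2 by -0.18 ± 0.13 against both.

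Some mitochondrial mRNAs also differed between WT libraries of the PLX3397 sets and naive WT, all of the first kind. At depletion mt-Nd4, mt-Nd5 and mt-Cytb rose against naive WT by 0.85 ± 0.22, 0.76 ± 0.22 and 0.76 ± 0.22 (adjusted p = 0.0182, 0.0462 and 0.0407), 3 of 13 mRNAs against 2.87% of all genes called and 1.42% called higher. At repopulation mt-Co1 and mt-Atp8 rose by 0.83 ± 0.24 and 0.80 ± 0.21 (adjusted p = 0.032 and 0.0149), 2 of 13 against 3.31% called and 2.23% called higher. Between repopulation and depletion edgeR called 0 mRNAs, with 2 at an unadjusted p under 0.05, 0 by DESeq2 and 3.69% of all genes called. The count at depletion fell to 0 without WT naive 3 or WT depletion 3 and to 1 without WT naive 1, WT naive 4 or any other WT depletion library. The count at repopulation fell to 0 without WT repopulation 1, 2 or 4 and to 1 without WT naive 1, 3 or 4. A fit of only the libraries compared called 13 at depletion and 9 at repopulation, where 5.8 and 8.27% of all genes were called. Markers of other cells moved with these comparisons. The summed level of 7 markers of border-associated macrophages was 607 to 1459 CPM in naive WT, 90.5 to 199 at depletion and 27.7 to 78.6 at repopulation, and that of 4 monocyte markers was 26.4 to 53.8, 3.00 to 7.87 and 8.42 to 12.5 CPM. Their part in the mitochondrial differences was not tested. Naive, depletion and repopulation WT libraries may also differ in preparation or sequencer, and neither can be told apart from the treatment. The KO-WT difference did not pass the test for any mRNA when compared between depletion and naive or between repopulation and naive, with 0 called by edgeR and DESeq2, 0 and 1 at an unadjusted p under 0.05 and 0 and 0.038% of all genes called by edgeR.

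Both rRNAs were called higher in KO in 2 of the 5 sets, naive 5 to 11 and cuprizone, where 13.7 and 14% of all genes were called. Kits for total RNA of this type remove ribosomal sequence, and how completely they did so here was not tested. In the naive 5 to 11 set mt-Rnr2, the large subunit rRNA (chrM:1094-2675), ran from 35964 through 47155 to 59819 CPM in Het and from 102473 through 142466 to 164381 in KO. The groups did not overlap, where 0.429% of all genes had every KO library above every Het library. The difference was 1.73 ± 0.26 (adjusted p = 3.11e-06). mt-Rnr1, the small subunit rRNA (chrM:70-1024), ran from 15425 through 19804 to 29888 CPM in Het and from 23180 through 35801 to 40721 in KO, with overlap. It differed by 0.88 ± 0.26 (adjusted p = 0.0185), a call lost without KO 9 (adjusted p = 0.05133).

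In the cuprizone set mt-Rnr2 stood at 36393, 24291, 50140 and 39625 CPM in Het and ran from 70958 through 114440 to 117747 in KO. The groups again did not overlap, where 2.41% of all genes had every KO library above every Het library. The difference was 1.63 ± 0.31 (adjusted p = 0.000128). mt-Rnr1 stood at 15742, 10106, 20684 and 18035 CPM in Het and ran from 14389 through 30732 to 32455 in KO, with KO 3 inside the Het range. It differed by 0.89 ± 0.31 (adjusted p = 0.0486), and this call was lost in the fits without 8 of the 10 single libraries, all but KO 3 and Het 3. Together the rRNAs took 12.6 to 20.5% of all counts in naive KO and 5.24 to 8.78% in naive Het of the 5 to 11 set.

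The ratio of mt-Rnr2 to mt-Rnr1 counts separated the genotypes in both sets. It was 1.94 to 2.51 in Het and 3.82 to 4.42 in KO of the naive 5 to 11 set, and 2.197 to 2.42 and 3.63 to 4.93 in the cuprizone set. In libraries of the first kind the ratio lay between 2.53 and 3.05 for all genotypes. There the rRNAs took 0.266 to 1.91% of counts, and no difference between KO and control passed the test, with estimates of 0.24 to 0.28 in the naive 1 to 5 set. At depletion mt-Rnr2 stood at 5401 and 2927 CPM in KO, 6436 and 11902 in Het and 6950, 13718, 3520 and 2967 in WT. Its difference was -1.11 ± 0.46 against Het (adjusted p = 0.385) and -0.65 ± 0.41 against WT (adjusted p = 0.621), so the estimates had the opposite sign to those of the mRNAs in the same libraries, and neither passed the test. At repopulation it was 0.02 ± 0.32 and -0.29 ± 0.32. Between the naive sets the KO-Het difference of mt-Rnr2 was 1.49 ± 0.40 larger in libraries 5 to 11 (adjusted p = 0.0594). These sets are of different kinds of library, which cannot be told apart from set. WT depletion libraries held more of both rRNAs than naive WT, by 1.40 ± 0.31 for mt-Rnr2 (adjusted p = 0.00302) and 1.46 ± 0.32 for mt-Rnr1 (adjusted p = 0.00309). In that comparison 2.87% of all genes were called and 1.42% called higher. Without WT depletion 2 the differences of the 2 rRNAs fell to 0.80 and 0.81 (adjusted p = 0.2094 and 0.2348).

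**Figure D5:**
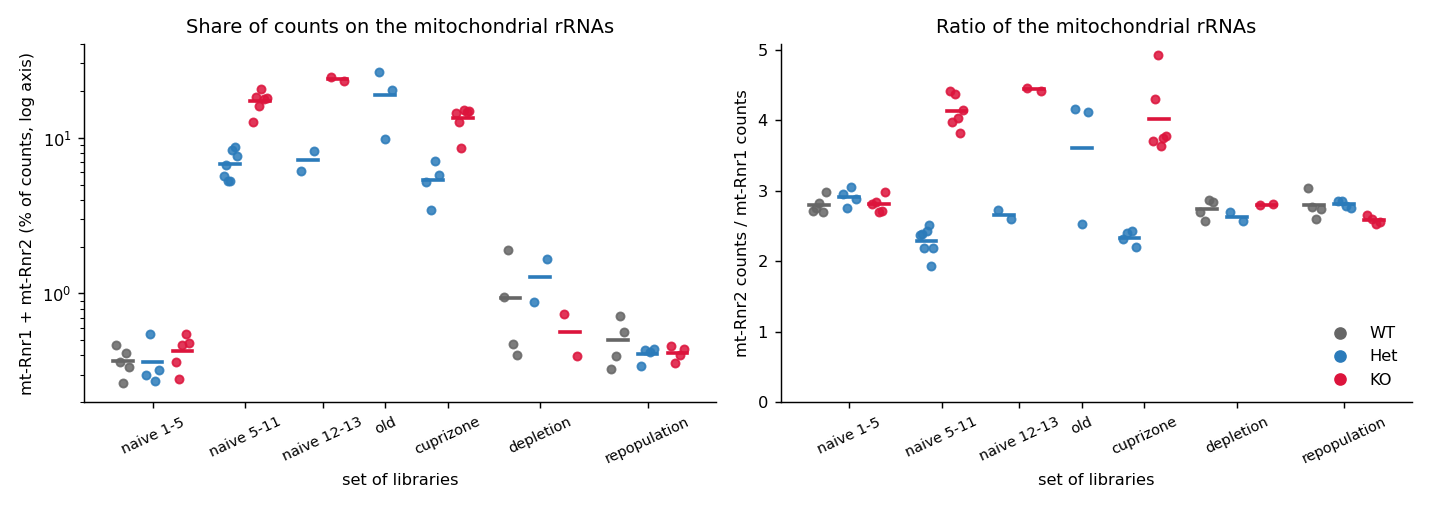
Share of all counts on the 2 mitochondrial rRNAs in percent and the ratio of mt-Rnr2 to mt-Rnr1 counts (vertical axes), 1 point per library with the group mean as a line, by set and genotype. In the naive 5 to 11 and cuprizone sets every KO ratio is at least 3.63 and every Het ratio at most 2.51, while the naive 1 to 5, depletion and repopulation sets lie between 2.53 and 3.05.

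tRNAs were counted poorly. All 22 together held 9547 counts over 64 libraries, 11 of them under 100 counts each, and 12 passed the filter on low counts. In the naive 5 to 11 set 2 of the 12 were called, both higher in KO, where 13.7% of all genes were called and 7.68% called higher. Of the 9547 counts, 4973 were on mt-Tg, the glycine tRNA, whose gene is printed because it is 1 of these 2.
mt-Tg (chrM:9391-9458, plus strand): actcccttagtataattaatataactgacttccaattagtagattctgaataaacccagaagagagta
In the naive 5 to 11 set it had 36 counts over the 7 Het libraries (1 to 14 each) and 139 over the 6 KO libraries (19 to 27 each). Its level of 0.125 to 1.20 CPM in Het and 1.66 to 3.299 in KO did not overlap, where 0.429% of all genes had every KO library above every Het library. It differed by 2.18 ± 0.50 (adjusted p = 0.00223). mt-Tm, the methionine tRNA, had 2 counts in Het, with 6 of 7 libraries at 0, and 24 in KO (0 to 7 each). Its fitted difference of 3.56 ± 1.08 (adjusted p = 0.0213) rests on these few counts, and its call was lost without KO 6 (adjusted p = 0.05118). The filter used all 64 libraries, and mt-Tm held 28 to 89 counts in the old Het libraries, which entered no comparison. In the naive 5 to 11 set no library reached the filter's minimum count of 10 for mt-Tm. In the cuprizone set and the 3 sets of the first kind no tRNA was called between KO and control. At this depth a difference in most tRNAs was not detectable.

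Nuclear genes that make or process mitochondrial RNA were examined as a list of 30, of which 29 were tested: the polymerase Polrmt, its factors, the termination factors, RNA-binding proteins and nucleases. In the naive 5 to 11 set 4 rose and none fell, where 13.7% of all genes were called. Mrpl12, a mitochondrial ribosomal protein, rose by 0.75 ± 0.18 (adjusted p = 0.00309), Rexo2, an exonuclease for short RNAs, by 0.53 ± 0.15 (adjusted p = 0.0123), Grsf1, an RNA granule protein, by 0.37 ± 0.13 (adjusted p = 0.0456) and Mterf2 by 4.22 ± 1.33 (adjusted p = 0.0273). The median over the list was 0.02. Under cuprizone 3 rose and none fell, where 14% of all genes were called and 8.16% called higher. Rexo2 rose by 0.99 ± 0.19 (adjusted p = 0.000174), Elac2, which trims tRNA ends, by 0.85 ± 0.29 (adjusted p = 0.0444) and Hsd17b10, a subunit of mitochondrial RNase P, by 0.72 ± 0.26 (adjusted p = 0.0499823). In the first kind of library Mterf3 was lower in naive KO than WT, at -1.83 ± 0.46 (adjusted p = 0.0205), and higher in repopulation KO than Het, at 1.69 ± 0.52 (adjusted p = 0.0475). This was 1 of 29 in each, where 1.93 and 4.62% of all genes were called. Against the other control, naive Het or repopulation WT, no gene of the list was called.

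Genes of mitochondrial DNA replication and nucleotide supply were a list of 10, with 9 tested. Polg2, the accessory subunit of the mitochondrial DNA polymerase, was the only one called in any comparison of KO with control. It fell by 2.13 ± 0.32 in the naive 5 to 11 set (adjusted p = 3.11e-06) and by 2.59 ± 0.36 under cuprizone (adjusted p = 6e-07). This was 1 of 9 in each set, where 13.7 and 14% of all genes were called.

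Summed CPM of markers of the cells in the sort differed between genotypes in some sets. These sums are unscaled shares of all counts, mitochondrial rRNAs included. The summed level of the 8 microglia markers was 33051 and 33411 CPM in depletion KO, against 41680 to 45641 in Het and 42682 to 43165 in WT. It was 36470 to 39686 in repopulation KO, against 41607 to 44645 in Het and 42895 to 47317 in WT. In the naive 5 to 11 set it was 18538 to 21013 in KO and 21182 to 24974 in Het, and under cuprizone it overlapped, at 17947 to 24857 and 19086 to 21504. In the naive 1 to 5 set it was 37419 to 45158 in KO, 45821 to 48587 in Het and 43229 to 48914 in WT. In the scaled edgeR fits the median log2 fold change of the 8 markers was 0.01 in the naive 5 to 11 set and 0.19 under cuprizone. Against Het and WT it was -0.21 and -0.28 at depletion, -0.01 and -0.11 at repopulation and -0.21 and -0.17 in naive 1 to 5. Of the 8, 1 rose in the naive 5 to 11 set and 3 under cuprizone, where 13.7 and 14% of all genes were called. At repopulation 1 fell against Het and against WT, where 4.62 and 4.78% of all genes were called. None was called in the other sets.

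Summed CPM of markers of other cells differed between genotypes as well. In the naive 1 to 5 set the 4 monocyte markers summed to 5.21 to 20.6 CPM in KO, 21.2 to 27.8 in Het and 26.4 to 53.8 in WT, without overlap between KO and either control. The 7 lymphocyte markers summed to 0.822 to 2.04 CPM in KO, 1.39 to 4.32 in Het and 3.34 to 7.71 in WT, and those of border-associated macrophages to 192 to 618, 587 to 923 and 607 to 1459. At depletion 1 of the 2 KO libraries held 56.2 CPM of monocyte and the same library 56.9 CPM of neutrophil markers, against at most 7.87 and 4.01 in the controls and 2.41 and 0 in the other KO library. These 2 KO libraries held 18614 and 18605 CPM of mt-Co1. At repopulation the 6 endothelial markers summed to 54.2 to 103 CPM in KO, 91.9 to 215 in Het and 122 to 206 in WT. Sums of the monocyte, macrophage and neutrophil markers overlapped between KO and Het in the naive 5 to 11 and cuprizone sets. Lymphocyte markers under cuprizone did not, at very low levels of 0 to 0.224 CPM in KO and 0.273 to 2.29 in Het. Of 7 neuron markers 1, Snap25, was called higher in KO in both sets, where 13.7 and 14% of all genes were called. Against WT in the naive 1 to 5 set Snap25 was called lower, as was the monocyte marker Ccr2, where 1.93% of all genes were called. The monocyte marker Chil3 was higher in depletion KO than WT, where 1.61% were called. The neutrophil marker Ly6g and the endothelial marker Cldn5 were lower in repopulation KO than WT, where 4.78% were called. The endothelial marker Pecam1 was lower in naive 5 to 11 KO. Under cuprizone the endothelial marker Kdr was higher and the lymphocyte marker Ms4a1 lower. The part of these cells in the mitochondrial differences was not tested.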

How the data were processed

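The deposited table holds 1 count per gene and library, whole numbers for 45708 genes in 64 libraries. Per the submitters' processing notes, the tools were bcl2fastq 2.20, Trim Galore 0.6.7, STAR 2.6.1d and Salmon 1.5.2 with build GRCm38, and which of them made the counts is not given in the sources used here, so the authors' counts may be rounded estimates. Per the labels' protocols the kit was stranded, but whether strand was used in counting is not given. CPM are counts scaled to a library total of 1000000. Genes were kept by filterByExpr (minimum count 10, minimum total 15), which left 18413, 27 of them mitochondrial, and scaled by TMM.

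Contrasts were tested with edgeR 4.0.16 (glmQLFit and glmQLFTest, two-sided, R 4.3.3) on all 64 libraries together, fitting a mean for each genotype in each set, so that all groups share 1 spread, and with Benjamini-Hochberg adjustment over all genes kept, called at 0.05. Errors of log2 fold changes are standard errors derived from the fold change and its F statistic. The fits were tested on simulated data with 200 changed genes. The mitochondrial genes, the sets and the gene lists were chosen with earlier results of these data known. All 13 mRNAs, both rRNAs and tRNAs past the filter could be named, and up to 4 called genes of each nuclear list with the smallest p.

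Alternatives were DESeq2's size factors, scaling without the mitochondrial genes, no filter on low counts, DESeq2 1.42.0 (Wald test), only the libraries compared, the replicate number as a block, sex as a covariate (41 libraries were taken as male and 23 as female by expression of Y genes), order of the libraries as a term (naive 1 to 5 and cuprizone), and each library left out in turn (57 fits, with the trend of the spread held fixed). Adding the counts of the chromosome 1 copies, alone or with only the libraries compared, was chosen after seeing the data. Copies were found by aligning GENCODE M21 transcripts (at least 95% identity over 200 bases), and 45143 gene identifiers of the table, all 37 mitochondrial ones included, were in that annotation. A count of 0 in a library allows up to 3 counts. No pair of libraries held identical counts. Single results of the microglia markers are not reported here.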

Additional observations from a re-analysis of the deposited data

Results flagged for a closer look

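Among 33 group measures checked for a library that stands apart, 1 was found. In naive KO libraries 6 to 11, the share of counts on mitochondrial mRNA was 1.42% in KO 6, and the nearest of the other 5 was 2.19%. The gap took up 0.764 of the whole range of the group, above Dixon's 95% critical value for 6 samples. Chance gives such a library in about 1 in 20 groups. Without KO 6, the count of mRNAs called between KO and Het of this set was 10 instead of 12, with mt-Nd2 and mt-Nd4l no longer called.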

How the results depend on the processing

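Values are numbers of the 13 mRNAs called, with the number as reported in parentheses. KO against Het, naive 1 to 5 (0): 1 by DESeq2, with order of libraries as a term and with only the libraries compared, 0 to 1 with a library left out. KO against WT, naive 1 to 5 (2): 4 with copies added, 0 to 4 with a library left out. KO against Het, naive 5 to 11 (12): 10 to 12 with a library left out and 9 with only the libraries compared. Cuprizone (11): 4 with only the libraries compared, 7 with copies added to that, 9 to 11 with a library left out. Depletion against Het (1): 2 by DESeq2, 0 with only the libraries compared, with or without copies, and 0 with any library left out. Depletion against WT (3): 6 with copies, 12 with only the libraries compared, with or without copies, 0 to 3 with a library left out. Repopulation against Het (1): 2 by DESeq2 and with sex, 3 with copies, 8 with only the libraries compared, with or without copies, 0 to 1 with a library left out. Repopulation against WT (0): 1 with sex, 3 by DESeq2, 2 with copies, 6 with only the libraries compared, with or without copies, 0 with any library left out. WT depletion against naive (3): 1 with sex, 5 with copies, 13 with only the libraries compared, with or without copies, 0 to 3 with a library left out. WT repopulation against naive (2): 4 with copies, 9 with only the libraries compared, 8 with copies added to that, 0 to 2 with a library left out. WT repopulation against depletion (0): 2, both lower, with only the libraries compared, with or without copies, 0 with any library left out. Fits of only the libraries compared estimate the spread from those libraries alone. No contrast with 3 or more pairs had all its same-numbered libraries correlated above 0.1 (from 0.013 to 0.156 in the naive 5 to 11 set), so the numbers were not taken as pairs. With the replicate number as a block the counts were, in the order above, 0, 0, 10, 1, 0, 12, 8, 6, 8, 10 and 0. For the block, DESeq2 and several other fits the share of all genes called is not given here. Changes in such counts are therefore not read as particular to the mitochondrial genes. The block also reversed mt-Nd4l (-0.11) and mt-Nd4 (-0.064) in naive 1 to 5 KO against Het and mt-Nd3 (-0.29) and mt-Nd4l (-0.75) under cuprizone, all of them not called. For repopulation KO against Het mt-Rnr2, 0.02 as reported, was -0.020355 with DESeq2's size factors and -0.020351 by DESeq2, -0.00073 without the filter, -0.11 with sex, -0.01148 with only the libraries compared, -0.01151 with copies added to that and -0.01064 with the block, and mt-Rnr1 was -0.017 with sex. Of values not called, these changed sign with a library left out: mt-Nd4l (-0.092 to 0.25) and mt-Nd4 (-0.054 to 0.27) in naive 1 to 5 KO against Het, lowest without KO 5; mt-Nd3 in the naive 5 to 11 set (-0.0053 to 0.57, lowest without KO 11) and at depletion against Het (-0.26 to 0.73); at repopulation mt-Rnr2 (-0.064 to 0.088), mt-Nd4l (-0.015 to 0.24) and mt-Nd4 (-0.016 to 0.23) against Het, and mt-Rnr1 (-0.40 to 0.044), mt-Nd4l (-0.046 to 0.23) and mt-Nd4 (-0.0013 to 0.24) against WT. The cause was not tested. Differences between sets gave 0 mRNAs called with any library left out. Depth limits the tRNAs, and the division of counts with the chromosome 1 copies limits mt-Co2, mt-Co3, mt-Atp6, mt-Nd3 and mt-Nd4l in the naive 5 to 11 and cuprizone sets.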

Other observations

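The naive adult libraries 12 and 13 and the old Het libraries entered no comparison, and their values are given without a test. Of the counts, 2.80 and 2.84% fell on the 13 mRNAs in KO 12 and KO 13, and 0.938 and 1.10% in the 2 Het libraries. The rRNAs took 24.4 and 23.1% in these KO libraries and 6.13 and 8.23% in Het, and mt-Rnr2 exceeded mt-Rnr1 4.46 and 4.41 times in KO and 2.72 and 2.601 times in Het. All 4 values of each measure lay apart by genotype, in the direction seen in the naive 5 to 11 set.

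The 3 libraries labelled old Het differed widely among themselves. Old Het 1 and 3 held 26.3 and 20.4% of counts on the rRNAs, with ratios of mt-Rnr2 to mt-Rnr1 of 4.16 and 4.11 and mt-Co1 at 10641 and 8613 CPM, while old Het 2 held 9.78%, a ratio of 2.53 and 3876 CPM. Their Uqcrfs1 levels were 5.20 CPM in old Het 1, 12.02 in old Het 2 and 6.58 in old Het 3. The naive 5 to 11 libraries held 1.17 to 3.26 CPM in KO and 9.34 to 17.7 in Het, so that the libraries labelled old Het 1 and 3 lay between these ranges, and their labelled genotype could not be checked further. In the naive 5 to 11 set the ratio of mt-Rnr2 to mt-Rnr1 was 3.82 to 4.42 in KO libraries. A relation between these measures was not tested, since the group holds 3 libraries.

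Mitochondrial tRNAs reached their highest levels in libraries outside the comparisons. Together they stood at 96.0, 63.2 and 85.1 CPM in old Het 1, 2 and 3 and at 119.6 CPM in KO 12, against 11.95 in KO 13.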
